A study of Homo sapiens with 12 samples.

Results

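The genes described here encode receptor tyrosine kinases and ligands of the epidermal growth factor receptor, and were measured in NCI-H1975 cells treated with erlotinib, quinacrine or both. The set was a list of 10 genes: the receptors EGFR, ERBB2, ERBB3, MET, AXL and EPHA2, and the ligands EREG, AREG, TGFA and HBEGF. For each gene the probe set with the highest mean over the arrays was used, among probe sets that carried 1 gene symbol. By this rule 8 of the 10 genes had a value, 5 receptors and 3 ligands, of 22395 genes named on the array. The probe set of ERBB2 also carried the symbol of a microRNA gene, and no probe set was named AREG in the annotation used, so neither gene was analysed here. EGFR, ERBB3, MET, AXL, EPHA2 and EREG had a mean log2 level of at least 5 and were tested together with all 5820 genes above that level. TGFA and HBEGF were below it and are given as values.

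NCI-H1975 is an established human lung adenocarcinoma line whose EGFR carries the L858R and T790M changes, so the cells of every group share this mutant receptor. L858R is an activating change, and T790M is the change best known for resistance to erlotinib, an inhibitor of the EGFR kinase. Quinacrine is an old antimalarial drug. The series held 12 RNA samples on 1 array each: 4 arrays with the combination of 1 µM erlotinib and 3 µM quinacrine (6, 12, 24 and 48 h), 3 with 3 µM quinacrine (6, 12 and 24 h), 4 with 1 µM erlotinib (6, 12, 24 and 48 h), and 1 untreated. Each treatment and time thus had 1 array, and the arrays of a treatment at its different times served as its replicates. The treatment protocol also names 5 µM quinacrine, but every sample title with quinacrine gives 3 µM. Nothing in the labels says how the cultures were separated or which vehicle the untreated cells received.

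A receptor tyrosine kinase binds its ligand outside the cell, forms pairs and phosphorylates itself and its partners, which starts the RAS-ERK and PI3K-AKT cascades. The EGFR ligands are made as membrane-bound precursors that proteases cut free, and ERBB3, whose own kinase is weak, signals by pairing with EGFR, ERBB2 or MET. MET and AXL are known as routes by which lung cancer cells can signal when EGFR is blocked. EPHA2 binds ephrin-A ligands on neighbouring cells and is common in epithelial tumours.

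The promoter windows of the gene that passed a test, EPHA2, and of the ligand genes EREG and HBEGF, which lay below the untreated array on every treated array, are shown to give their sequence context. Each runs for 300 bases, 250 before and 50 after the annotated start, from RefSeq on GRCh38.p14. Of the 10 listed genes, 3 had several windows, and only the window of the most upstream start was described. EPHA2 lies at chr1:16156020-16156319 on the minus strand, EREG at chr4:74364895-74365194 on the plus strand and HBEGF at chr5:140346554-140346853 on the minus strand. Capitals mark the matches to the motifs searched.
EPHA2: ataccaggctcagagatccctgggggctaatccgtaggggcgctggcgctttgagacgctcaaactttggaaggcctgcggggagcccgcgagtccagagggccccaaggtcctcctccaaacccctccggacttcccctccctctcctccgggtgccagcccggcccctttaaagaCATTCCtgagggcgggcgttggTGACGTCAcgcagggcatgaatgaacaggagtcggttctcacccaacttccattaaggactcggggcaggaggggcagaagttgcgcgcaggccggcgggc
EREG: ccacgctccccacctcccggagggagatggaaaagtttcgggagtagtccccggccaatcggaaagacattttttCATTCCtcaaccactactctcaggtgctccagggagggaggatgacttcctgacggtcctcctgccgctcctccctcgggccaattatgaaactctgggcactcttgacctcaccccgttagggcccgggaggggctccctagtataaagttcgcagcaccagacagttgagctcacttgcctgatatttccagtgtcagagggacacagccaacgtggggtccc
HBEGF: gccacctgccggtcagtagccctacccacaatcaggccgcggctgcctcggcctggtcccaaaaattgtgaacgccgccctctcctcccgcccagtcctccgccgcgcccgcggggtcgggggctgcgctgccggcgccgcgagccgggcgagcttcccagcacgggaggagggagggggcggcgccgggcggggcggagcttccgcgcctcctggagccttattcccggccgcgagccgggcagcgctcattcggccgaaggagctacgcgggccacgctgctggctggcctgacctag
Windows were searched on both strands for AP-1 (TGANTCA), CRE (TGACGTCA), TEAD (GGAATG) and NF-kappaB (GGGRNWYYCC) motifs. N stands for any base, R for A or G, W for A or T and Y for C or T. The motifs were chosen after the sequences were seen and do not overlap one another in these windows. Only these letters were searched, so a site that differs from them is not counted. In EPHA2 a CRE match began 51 bases before the start and a TEAD match on the opposite strand lay at 73 bases before it. EREG held 1 TEAD match, and HBEGF held none of the 4 motifs, as did EGFR, MET and AXL. TGFA held an NF-kappaB match. Of the genes without values, AREG held a CRE match and ERBB2 an AP-1 match. ERBB3 was not matched in the table. Over 35116 promoter windows, CRE occurred in 1.85%, AP-1 in 7.71%, NF-kappaB in 5.91% and TEAD in 14%, so a match is common for TEAD and uncommon for CRE. A match is a description of the letters in a window.

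Of 9 epithelial markers with a value, KRT7, KRT19, EPCAM, CDH1, MUC1 and NKX2-1 passed the level filter, at means of 6.12 to 10.31. KRT8, KRT18 and NAPSA were below it, at means of 2.81, 4.71 and 2.87. Of 7 markers of other cells with a value, PTPRC, CD3E, VWF, COL1A1 and DCN were at means of 0.74 to 2.76, whereas CD68, a lysosomal protein used to mark macrophages, was at 8.57 and HLA-DRA at 5.90. HLA-DRA, which presents antigen, rose with time by 0.38 per doubling (limma adjusted p = 0.0243), and its part in the results below was not tested. The combination array at 6 h stood apart: its median over the tested genes was 6.18, against 6.39 to 6.56 on the other arrays. Values without it are given beside EPHA2, EGFR, EREG, HBEGF and the pathway genes that passed.

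EPHA2 was the only listed gene that differed between treatment arms by the test used. Its log2 level was 8.18, 8.24, 8.28 and 8.51 with the combination at 6, 12, 24 and 48 h. With quinacrine alone it was 8.32, 8.27 and 8.39 at 6, 12 and 24 h. With erlotinib alone it was 7.79, 7.62, 7.53 and 7.47 at 6, 12, 24 and 48 h, and it was 7.89 on the untreated array. Every array with quinacrine was therefore above every array without it, with the untreated array between the arms. Such separation of the 7 arrays with quinacrine above the 5 without was found for 136 of the 5820 tested genes, or 2.34%, and for 1 of the 6 listed genes that were tested.

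With the combination, EPHA2 averaged 8.30 ± 0.14, against 7.60 ± 0.14 with erlotinib (SD over 4 time points each). It rose 1.62-fold with the combination relative to erlotinib, a log2 difference of 0.70 (SE 0.12, 95% interval 0.43 to 0.97, limma adjusted p = 0.0266). Among all genes tested, 1.43% rose in that comparison, and 1 of the 6 listed genes did. Quinacrine against erlotinib gave 1.67-fold, a log2 difference of 0.74 (SE 0.13, 95% interval 0.44 to 1.04, limma adjusted p = 0.0448), where 0.515% of the tested genes rose and again 1 of the 6. The combination and quinacrine alone differed by -0.04 (95% interval -0.34 to 0.26), which does not show that they act alike.

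At matched times the excess of the combination over erlotinib in EPHA2 was 0.39, 0.62, 0.75 and 1.04 for 6, 12, 24 and 48 h in turn. The 6 h value sits beside a median over all tested genes of -0.27, and the medians at 12, 24 and 48 h were 0.14, 0.04 and -0.02. The difference in slope between the combination and erlotinib was 0.21 per doubling of time (limma adjusted p = 0.342), which did not pass. Against untreated, the EPHA2 difference was 0.41 with the combination (adjusted p = 0.404), 0.44 with quinacrine (adjusted p = 0.415) and -0.29 with erlotinib (adjusted p = 0.999), and none passed. Both calls against erlotinib were kept in 2 of the 11 fits that left out 1 array, those without combination at 6 h and without erlotinib at 6 h, and lost in the others. Without the combination array at 6 h that stood apart, the differences were 0.77 for the combination (limma adjusted p = 0.0152) and 0.72 for quinacrine (limma adjusted p = 0.0210). Leaving out 1 array moved the difference between 0.59 and 0.79 for the combination, and between 0.68 and 0.84 for quinacrine. Both were also lost with no filter on low levels and with the 6, 12 and 24 h arrays alone.

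**Figure D1:**
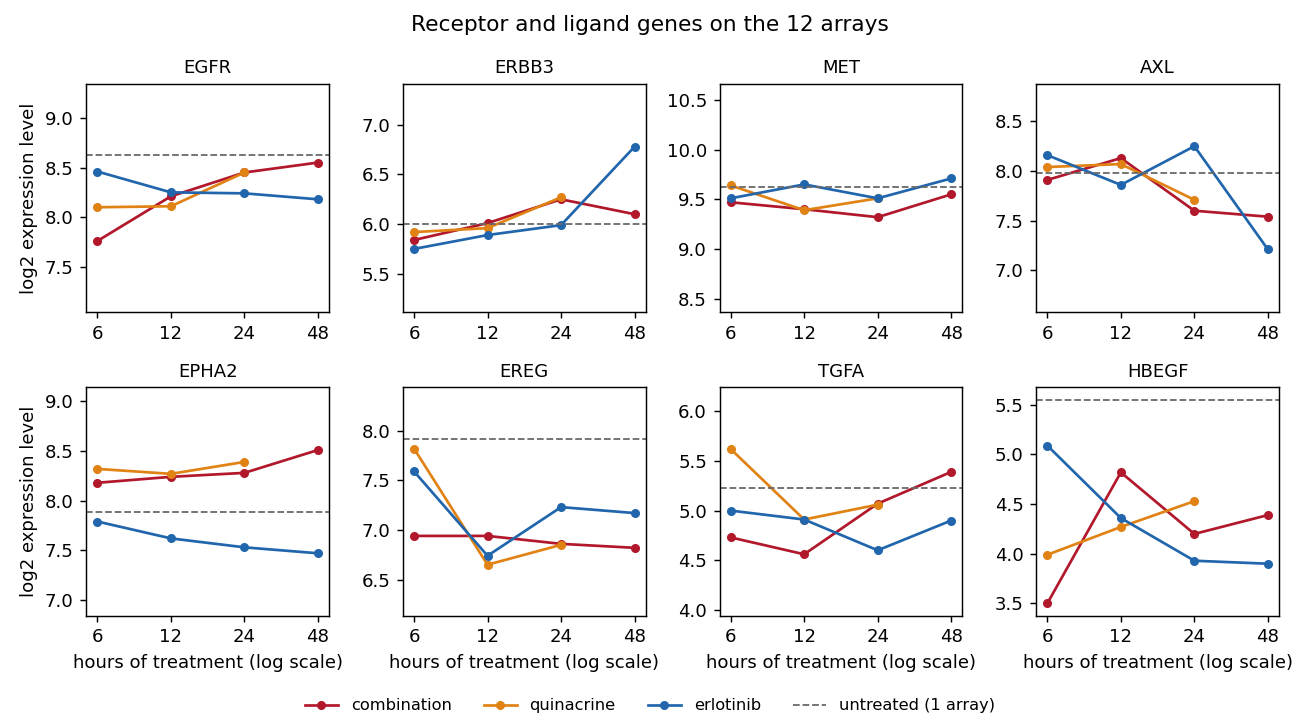
Log2 level of the 8 genes with a value (vertical axis, of the same height in every panel) against hours of treatment on a log scale, with 1 array a point. Lines join the arrays of the combination, quinacrine and erlotinib, and the dashed line is the untreated array. In EPHA2 all arrays with quinacrine are above all others, and in EREG, HBEGF and EGFR every treated array is below the dashed line.

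EGFR, the target of erlotinib, had levels of 7.76, 8.21, 8.45 and 8.55 with the combination at 6, 12, 24 and 48 h. With quinacrine it was 8.10, 8.11 and 8.45 at 6, 12 and 24 h, and with erlotinib 8.46, 8.25, 8.24 and 8.18 at 6, 12, 24 and 48 h. The untreated array had 8.63, above all 11 treated arrays. The combination arrays were lowest at 6 h and highest at 48 h, and the erlotinib arrays the reverse. The difference in slope was 0.35 per doubling of time (SE 0.09, limma adjusted p = 0.208), and 0.26 without the combination array at 6 h (adjusted p = 0.526), neither of which passed. The difference between the combination and erlotinib was -0.04 and became 0.13 without combination at 6 h, and neither passed.

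ERBB3, the receptor with a weak kinase, had levels of 5.84, 6.01, 6.25 and 6.10 with the combination at 6, 12, 24 and 48 h. With quinacrine it was 5.92, 5.96 and 6.27, and with erlotinib 5.75, 5.89, 5.99 and 6.78, against 6.00 untreated. The erlotinib array at 48 h was the highest of the 12, and the rest lay within 5.75 to 6.27. The slope over the treated arrays was 0.20 per doubling of time (SE 0.06, limma adjusted p = 0.0819), which did not pass.

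AXL, which binds GAS6, had its lowest level of the 12 on that array. The level was 7.91, 8.13, 7.60 and 7.54 with the combination, 8.04, 8.07 and 7.71 with quinacrine, and 8.16, 7.86, 8.25 and 7.21 with erlotinib, against 7.98 untreated. Its slope was -0.20 per doubling of time (SE 0.07, limma adjusted p = 0.127), and did not pass. ERBB3 and AXL correlated at r = -0.83 over the 12 arrays, as a description of arrays that share treatments and times. Without the erlotinib array at 48 h and the quinacrine array at 24 h, the value was -0.61.

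MET, the receptor for hepatocyte growth factor, had the narrowest range of the 5 receptors. It was 9.47, 9.40, 9.32 and 9.55 with the combination, 9.64, 9.39 and 9.51 with quinacrine, and 9.51, 9.65, 9.51 and 9.71 with erlotinib, against 9.62 untreated. Combination and erlotinib arrays overlapped, and the difference of -0.16 (95% interval -0.38 to 0.06, limma adjusted p = 0.391) did not pass.

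**Figure D2:**
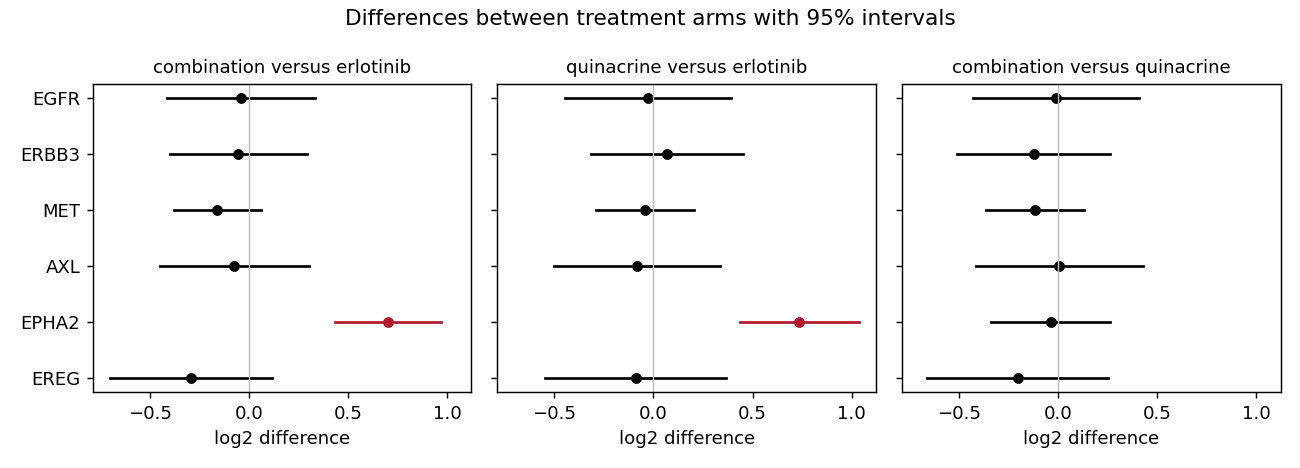
Log2 difference between treatment arms for the 6 tested genes (points) with 95% intervals (bars), in 3 panels for the combination versus erlotinib, quinacrine versus erlotinib and the combination versus quinacrine. Red marks an adjusted p under 0.05, which only EPHA2 reached, at 0.70 and 0.74.

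EREG encodes epiregulin, a ligand of EGFR and ERBB4. Its level was 6.94, 6.94, 6.86 and 6.82 with the combination at 6, 12, 24 and 48 h. With quinacrine it was 7.82, 6.65 and 6.85 at 6, 12 and 24 h, and with erlotinib 7.59, 6.74, 7.23 and 7.17 at 6, 12, 24 and 48 h. The untreated array had 7.92, and all 11 treated arrays were below it, the nearest being quinacrine at 6 h. The 4 combination arrays lay within 0.12 of each other, whereas the quinacrine arrays spanned 1.17. Against untreated the log2 differences were -1.03 with the combination (2.04-fold, adjusted p = 0.361), -0.81 with quinacrine (adjusted p = 0.499) and -0.74 with erlotinib (adjusted p = 0.999), and none passed. With weights for array quality the first of these was -1.05 and the second -1.07, and both passed, at limma adjusted p = 0.0275 and 0.0413. The estimation of the weights stopped short of its convergence tolerance. With the weights, 809 and 494 of all 5820 tested genes passed in the same comparisons in turn. EREG passed in 1 of 21 alternatives in each. The combination against erlotinib gave -0.29 (95% interval -0.70 to 0.12, limma adjusted p = 0.400) and -0.12 without the combination array at 6 h, and neither passed.

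HBEGF encodes heparin-binding EGF-like growth factor, which binds EGFR and ERBB4. Its level was 3.50, 4.82, 4.20 and 4.39 with the combination, 3.99, 4.27 and 4.53 with quinacrine, and 5.09, 4.36, 3.93 and 3.90 with erlotinib. The untreated array had 5.55, which was 0.46 above the nearest treated array. In a fit without the level filter the differences against untreated were -1.32, -1.29 and -1.23 for the combination, quinacrine and erlotinib, with limma adjusted p = 0.580, 0.601 and 0.999. Without the combination array at 6 h, a choice made after seeing the data, the combination value was -1.08 (limma adjusted p = 0.380). TGFA, the gene of transforming growth factor alpha, was at 4.73, 4.56, 5.07 and 5.39 with the combination, 5.62, 4.91 and 5.06 with quinacrine, and 5.00, 4.91, 4.60 and 4.90 with erlotinib, against 5.23 untreated. Treated arrays of TGFA lay on both sides of the untreated one.

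For EGFR, EREG and HBEGF, 3 of the 8 genes with a value, all 11 treated arrays were below the single untreated array. The same held for 460 of the 5820 tested genes, or 7.9%, against 2 of the 6 tested listed genes. It held for 1680 of the 22395 named genes, or 7.5%. EGFR and HBEGF had r = 0.75 over the 12 arrays, which share treatments, and 0.45 without the untreated array and the combination array at 6 h.

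**Figure D3:**
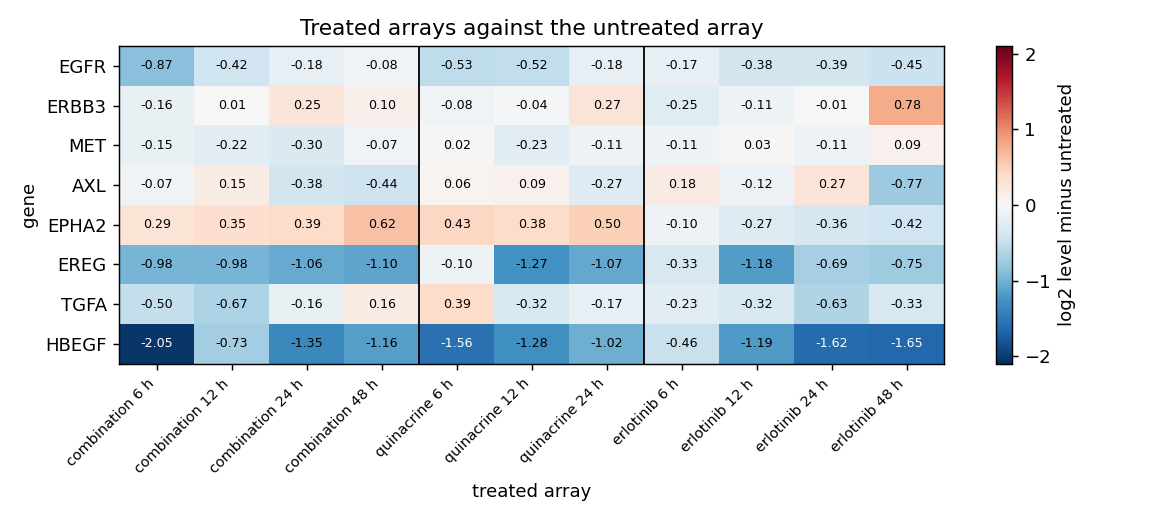
Log2 level on each of the 11 treated arrays minus the level on the untreated array, for the 8 genes (rows), with the combination, quinacrine and erlotinib arrays from left to right. EGFR, EREG and HBEGF are negative throughout, with HBEGF reaching -2.05 on the combination array at 6 h.

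Across the other contrasts no listed gene passed. The combination against quinacrine gave differences of -0.20 to 0.01 for the 6 tested genes, with none at an unadjusted p under 0.05 by limma, and among all tested genes 47 were. The departure from additivity, that is, the combination's difference from untreated less the differences of the 2 single drugs, was -0.10 to 0.52, with none of the 6 and 116 of all tested genes at an unadjusted p under 0.05. Against untreated, EPHA2 and EREG were under 0.05 unadjusted with the combination, EPHA2 with quinacrine and none with erlotinib, where 649, 599 and 144 of all tested genes were. ERBB3 and AXL were under 0.05 unadjusted for the slope with time, as were 1323 of all tested genes. EGFR and EPHA2 were for the slope difference, as were 770.

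The rest of the pathway was examined in 7 lists, of which 50 of 143 genes were tested. The lists were drawn up with earlier results of these data known, so their counts are not independent evidence. In the combination against erlotinib, 4 of the 50 rose and none fell, where 1.43% of all tested genes rose and 2.22% fell. In quinacrine against erlotinib, 1 of the 50 rose and none fell, where 0.515% of all tested genes rose and 0.619% fell. An unadjusted p under 0.05 was common, at 20.8% of all tested genes in the combination against erlotinib and 17.6% in quinacrine against erlotinib.

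Of the other EGF family ligands and ERBB4, 8 genes had a value and none passed the level filter, with means of 1.08 to 3.69. Other receptor tyrosine kinases had 8 of 51 genes tested, and none passed in the combination against erlotinib. Their median was -0.07, against -0.03 over all tested genes, and 1 was at an unadjusted p under 0.05 by limma. MERTK, a receptor of this list, had a mean of 4.97, just below the level filter, and was not among the 8. Its level was 4.35 to 5.81 on the arrays with quinacrine and 3.91 to 5.18 on those without. The ranges overlapped, but both ends were higher with quinacrine. The overlap therefore does not show that MERTK was alike in the treatment arms. A list drawn up for ligands of MET, AXL and EPHA2 had 2 tested genes, PROS1 and EFNA5. In the combination against erlotinib neither passed, and neither was under 0.05 unadjusted. For the slope with time both were, and neither passed. HGF, the gene of hepatocyte growth factor, and GAS6, which AXL binds, were below the level filter, at means of 1.07 and 1.83. The ephrin-A genes EFNA1, EFNA2 and EFNA3 were also below it, at means of 4.38, 3.45 and 2.47. In a limma fit without the filter, EFNA1 and EFNA2 were under 0.05 unadjusted in quinacrine against erlotinib. Their differences there were 0.65 (adjusted p = 0.350) and 0.93 (adjusted p = 0.321). In the combination against erlotinib EFNA1 was too, at 0.48 (adjusted p = 0.416). None passed, and EFNA3 was lower in both comparisons. Whether PROS1 acts through AXL was not tested. In the combination against erlotinib none of the 6 tested genes of ligand shedding passed, and 1 was under 0.05 unadjusted. ADAM10 and ADAM17, which cut ligand precursors free, were among the 6.

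SPRY4, a feedback inhibitor of receptor signalling, passed among 13 tested genes of receptor braking and turnover, and the other 12 did not; 7 of the 13 were under 0.05 unadjusted in the combination against erlotinib and 6 in quinacrine against erlotinib. It was 5.57, 5.28, 5.65 and 6.26 with the combination, 6.22, 5.15 and 5.77 with quinacrine, and 5.23, 4.24, 4.56 and 5.55 with erlotinib, against 5.55 untreated. It rose 1.74-fold with the combination relative to erlotinib (log2 0.80, SE 0.14, limma adjusted p = 0.0319) and 2.03-fold with quinacrine (log2 1.02, SE 0.16, limma adjusted p = 0.0328). Both rises are relative to erlotinib, whose arrays at 6, 12 and 24 h were below the untreated array and whose 48 h array equalled it. The 12 h arrays with the combination (5.28) and with quinacrine (5.15) were also below it, and the other arrays with quinacrine were above it. None of the 13 genes passed against untreated with the combination, quinacrine or erlotinib.

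Genes induced by ERK had 3 of 9 tested members higher with the combination than with erlotinib, against 1.43% of all tested genes, and a median of 0.20, against -0.03 over all tested genes. In quinacrine against erlotinib none of the 9 passed by limma, and 3 were under 0.05 unadjusted: DUSP5 (adjusted p = 0.0721), SPHK1 (adjusted p = 0.0945) and EGR1 (adjusted p = 0.104). SPHK1, a sphingosine kinase, was 6.08, 6.50, 6.61 and 7.38 with the combination, 6.36, 6.39 and 6.55 with quinacrine, and 5.83, 5.24, 5.71 and 5.42 with erlotinib, against 5.99 untreated. It rose 2.13-fold (log2 1.09, SE 0.23, limma adjusted p = 0.0397), and all its quinacrine-containing arrays were above all others. DUSP5, a phosphatase of ERK, rose 1.66-fold (log2 0.73, SE 0.14, limma adjusted p = 0.0349). EGR1, an immediate early transcription factor, rose 1.69-fold (log2 0.76, SE 0.17, limma adjusted p = 0.0479). These rises of SPHK1, DUSP5 and EGR1 are relative to erlotinib, whose mean was below the single untreated array for all 3. With that array as reference, none of the 9 tested genes passed or was under 0.05 unadjusted by limma with the combination or erlotinib. Against the untreated array the combination differed by 0.65 for SPHK1, 0.515 for DUSP5 and 0.365 for EGR1. Erlotinib differed from it by -0.44, -0.21 and -0.39 in turn. Like EPHA2, these 3 and SPRY4 lost their calls in the combination against erlotinib in 9 of 11 fits that left out 1 array, all but those without combination or erlotinib at 6 h. Without the combination array at 6 h the differences were 0.95 for SPRY4, 1.30 for SPHK1, 0.86 for DUSP5 and 0.80 for EGR1. In quinacrine against erlotinib, DUSP5 (adjusted p = 0.0301) and SPHK1 (adjusted p = 0.0389) passed limma's test without that array, and also without erlotinib at 6 h.

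None of the 12 tested adaptor and kinase cascade genes passed in the combination or quinacrine against erlotinib. In the combination against erlotinib 2 were under 0.05 unadjusted by limma, and in quinacrine against erlotinib 1 was. Chosen after their values were seen, STAT3 and PTPN1 had all 7 arrays with quinacrine above the other 5, as did 2.34% of the tested genes. HGS, an endosomal sorting gene, had all 7 below, as did 4.48% of the tested genes. With SPHK1, that made 3 of the 50 list genes above and 1 below. The STAT3 difference was 0.37 between the combination and erlotinib (limma adjusted p = 0.0625).

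The genes most like EPHA2 over the 12 arrays were F3 (r = 0.97), which encodes tissue factor, the adhesion gene ICAM1 (r = 0.97) and the cytokine gene IL24 (r = 0.96). The 12 arrays share treatments, and in EPHA2, F3, ICAM1 and IL24 every array with quinacrine was above every array without it. Within the 7 arrays with quinacrine, r was 0.94 for F3, 0.69 for ICAM1 and 0.53 for IL24. F3 was 7.30, 7.51, 7.71 and 8.04 with the combination, 7.59, 7.41 and 7.76 with quinacrine, and 6.85, 6.55, 5.89 and 5.63 with erlotinib, against 6.96 untreated, in the same order as EPHA2 on nearly all arrays (Spearman 0.99). The F3 window held 2 AP-1 matches, and those of ICAM1 and IL24 matched none of the 4 motifs as searched. A lack of matches does not show that a window lacks sites of these factors, since sites with other letters were not searched.

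**Figure D4:**
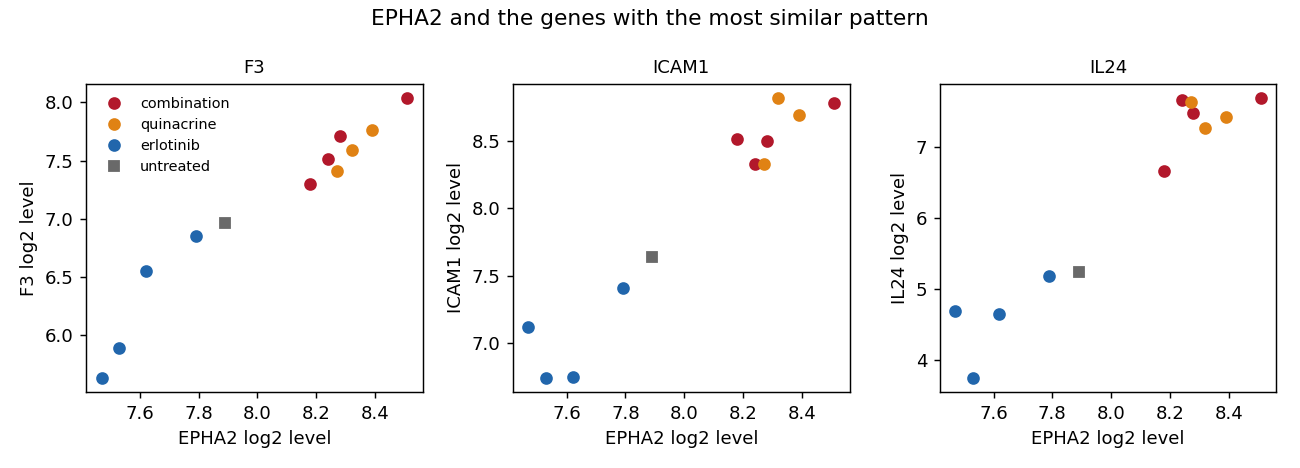
Log2 level of F3, ICAM1 and IL24 (vertical axes, 1 panel each) against that of EPHA2 (horizontal axis) on the 12 arrays, coloured by treatment, the square being the untreated array. The arrays with quinacrine form 1 cluster at the upper right, and the F3 points keep a line within it.

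The other genes had partners by the same measure. For EGFR these were CACNG4 (r = 0.94), PHAF1 and IMPA1 (r = 0.93 each). ERBB3 had ABHD18 (r = 0.93), LTBP3 (r = 0.92) and CHMP2A (r = 0.91), and AXL had MEPCE (r = 0.89), CAV1 (r = 0.87) and TGFBI (r = 0.86, and 0.55 without the erlotinib and combination arrays at 48 h). HBEGF had UTP6 (r = 0.91), LRRC47 (r = 0.90) and RNFT1 (r = 0.88), and EREG had RUSC1 (r = 0.84), RAB11B (r = 0.81, and 0.40 without the untreated array and the quinacrine array at 6 h) and CENPH (r = 0.80). MET and TGFA had lower values, led by CDIN1 (r = 0.79) and ACOT2 (r = 0.79). All are over 12 arrays that share treatments and times.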

How the data were processed

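RNA of 12 NCI-H1975 samples was hybridised to Affymetrix gene arrays. The log2 values were made by the authors with Affymetrix Expression Console 1.30 and RMA (background correction, quantile normalization and log2 transformation), per the labels' design text. The distributions of the deposited values were not equal between arrays. The interquartile range over all rows was 2.04 on the combination array at 6 h and 2.88 on the quinacrine array at 24 h. The deposited table held 53617 rows, of which 23871 carried 1 gene symbol, 1842 several and 27904 none; 22569 symbols were matched by Entrez identifier and 90 were updated. The members and lists were chosen with earlier results of these data known. For each gene the row of the highest mean was kept, and genes with a mean of at least 5 were tested (5820 of 22395).

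limma 3.58.1 in R 4.3.3 was fitted to all tested genes with Benjamini-Hochberg adjustment, and adjusted p under 0.05 was called. The model for comparing arms had factors for treatment and for time and used the 11 treated arrays (5 residual degrees of freedom). Comparisons with untreated used group means of all 12 arrays (8 residual degrees of freedom), with the lone untreated array assumed to vary like the rest and no time term. Slopes are per doubling of hours. Since nothing says the cultures were separate experiments, p-values measure only the spread left between these arrays by each model. In the arm comparisons that spread is the departure of the arrays from additive treatment and time effects. A difference between arms that changes with time therefore counts as spread, and no variation between repeated cultures was measured. The fits were also run on simulated data with independent noise, no time effect and a shift larger than the EPHA2 differences. That run does not show how the fits perform on differences of the size seen here. Genes named outside the listed 10 were chosen by rule. They were those past the threshold in a list, the 2 with the smallest p where none passed, or the 3 most correlated with each listed gene. Cell type markers, ADAM10, ADAM17, HGF, GAS6, EFNA1, EFNA2, EFNA3, MERTK, STAT3, PTPN1 and HGS were named besides. The number of arrays limits the precision.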

Additional observations from a re-analysis of the deposited data

How the results depend on the processing

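With 1 array per treatment and time, the listed genes' calls were fragile. EPHA2 in the combination against erlotinib was 0.70 (adjusted p = 0.081) with no filter on the mean and 0.70 (adjusted p = 0.185) over all rows, 0.69 (adjusted p = 0.0683) with arrays centred on the median of all rows, an alternative chosen after seeing the data, 0.59 (adjusted p = 0.0899) with the 6, 12 and 24 h arrays and 0.70 (adjusted p = 0.121) with the 2 arms alone. In quinacrine against erlotinib the same 5 alternatives gave 0.74 (adjusted p = 0.125), 0.74 (adjusted p = 0.254), 0.78 (adjusted p = 0.100), 0.68 (adjusted p = 0.0593) and 0.68 (adjusted p = 0.0716), so that in each comparison the count of listed genes called was 0 instead of 1. Leaving out 1 array gave 0.59 to 0.79 and 0.68 to 0.84, with counts of 0 to 1 in both. In each comparison EPHA2 passed in 9 of 23 alternatives, with adjusted p between 0.00613 and 0.185 for the combination and between 0.00373 and 0.256 for quinacrine. Array weights, whose estimation stopped short of its convergence tolerance, called 1 listed gene in quinacrine against untreated (EREG), where 494 of all 5820 tested genes passed. In the combination against untreated they called 2 (EREG and, at 0.41, EPHA2), where 809 of all tested genes passed. Centring on the median of tested genes called 1 slope (AXL, -0.27, adjusted p = 0.0432), where 231 of all tested genes passed. Of 1348 alternative values, 100 changed sign, in genes that did not pass; those that moved by more than their standard error follow. In the combination against erlotinib, EGFR was 0.18 without combination 6 h and erlotinib 12 h and ERBB3 was 0.16 with the 6, 12 and 24 h arrays. In the combination against quinacrine, EGFR was 0.19 and EREG 0.004 without those 2 arrays, and EREG was 0.0692 with array weights. Slopes with time were -0.0619 for EPHA2 and -0.0519 for MET with median centring, and -0.0467 for MET with the 6, 12 and 24 h arrays. The slope differences with those arrays were -0.20 for AXL and 0.085 for ERBB3. Leaving out 1 array gave -0.21 to 0.10 for AXL, -0.18 to 0.13 for EGFR and -0.14 to 0.16 for ERBB3 in the combination against erlotinib, -0.21 to 0.12 for AXL and -0.13 to 0.17 for EGFR in quinacrine against erlotinib, and -0.08 to 0.19 for EGFR and -0.40 to 0.0463 for EREG in the combination against quinacrine. It gave -0.0394 to 0.0483 for the EPHA2 slope, and -0.21 to 0.16 for AXL and -0.26 to 0.14 for EREG in the slope difference. Over all genes, 212 passed in the combination against erlotinib (83 higher, 129 lower) and 6 to 486 in its alternatives, among them 223 higher and 216 lower with median centring; 66 passed in quinacrine against erlotinib and 0 to 682 in its alternatives, and 134 in the slope with time and 0 to 863. The comparisons with untreated called 3 genes (0 to 809) for the combination, 2 (0 to 494) for quinacrine and 0 (0 to 2) for erlotinib, the combination against quinacrine 0 throughout, the departure from additivity 0 (0 to 1) and the slope difference 0 (0 to 24). The causes were not tested.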
